A study of Mus musculus with 4 samples.

Results

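The 10 genes described here encode calcium pumps (Atp2a2, Atp2a3, Atp2b1, Atp2b2, Atp2b4, Atp2c1 and Atp2c2) and the machinery of store-operated calcium entry (Orai1, Stim1 and Stim2). They were taken by gene symbol from a count table of 54532 mouse genes, where each symbol matched 1 gene. The genes were chosen by function, and the set was selected on the p value of Atp2a3, which ranked 18 of 15993 tested genes between irradiated and unirradiated cells (unadjusted p = 0.000826, edgeR quasi-likelihood test). The differences below between irradiated and unirradiated libraries therefore describe a contrast that was used in the choice.

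The RNA came from C57BL/6 mice carrying mammary tumors of MMTV-PyMT cells with a Dll1-mCherry reporter, grown after MFP injection, as the labels put it. In the irradiated group (2 libraries) the tumor received targeted radiation at day 30, and in the unirradiated group (2 libraries) it did not. The labels do not say how long after radiation the tumors were collected. All 4 libraries hold cells that were enriched for tumor cells with antibodies to CD45, CD31 and TER119 and then sorted for mCherry. The MMTV promoter drives the polyoma middle T oncogene in mammary epithelium, and every library shares this oncogene and the sort for Dll1, a Notch ligand. Separate animals are not stated for the libraries within a group, so errors and p-values cover the spread among these libraries and may be technical.

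Calcium is kept low in the cytosol by P-type ATPases in several membranes. SERCA pumps (Atp2a genes) load the endoplasmic reticulum, PMCA pumps (Atp2b genes) expel calcium across the plasma membrane, and SPCA pumps (Atp2c genes) load the Golgi with calcium and manganese. When the endoplasmic reticulum is emptied, the STIM proteins in its membrane sense the loss and open ORAI channels at the cell surface. In the lactating mouse gland, PMCA2, the product of Atp2b2, carries much of the calcium that enters milk.

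The pumps share the site at which ATP phosphorylates them, an aspartate followed by lysine, threonine, glycine and threonine, and its codons are shown because they mark the catalytic core that all 7 pump genes have in common. The pattern GANAANACNGGNACN was searched in the reading frame, on the coding strand only, of the longest coding sequence of each gene in GENCODE M21 (mm10). It occurred 1 time in each of the 7 pumps and in 59 of 21531 coding genes overall (0.274%). Each line, for 6 of the pumps, gives 45 bases of coding sequence, 5′ to 3′, with the 15 bases of the match in capitals.
Atp2a3: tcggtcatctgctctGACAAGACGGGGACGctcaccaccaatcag
Atp2b1: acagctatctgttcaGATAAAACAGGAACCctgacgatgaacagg
Atp2b2: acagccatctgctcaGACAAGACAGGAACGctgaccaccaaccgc
Atp2b4: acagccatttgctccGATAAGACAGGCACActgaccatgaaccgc
Atp2c1: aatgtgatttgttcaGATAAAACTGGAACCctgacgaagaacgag
Atp2c2: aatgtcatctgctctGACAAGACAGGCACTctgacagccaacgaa
The Atp2a3 stretch lies in exon 8 at chr11:72975591-72975635 on the plus strand and its match begins at codon 351. In the PMCA genes it begins at codon 475 of Atp2b1, 499 of Atp2b2 and 466 of Atp2b4, and in the SPCA genes at codon 383 of Atp2c1 and 377 of Atp2c2.

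Between relatives the coding sequences were 70.1% identical for Atp2a2 and Atp2a3, 72.2% to 74.0% for the 3 PMCA pairs, 66.0% for Atp2c1 and Atp2c2 and 62.1% for Stim1 and Stim2. The longest run that Atp2a3 and Atp2a2 share in their coding sequence was 44 bases, in exon 15 of each. It is shown with 12 bases on either side, in capitals where the genes are identical, because reads that fall wholly inside it could come from either gene.
Atp2a3: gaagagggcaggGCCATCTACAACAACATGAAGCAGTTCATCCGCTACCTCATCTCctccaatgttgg
Atp2a2: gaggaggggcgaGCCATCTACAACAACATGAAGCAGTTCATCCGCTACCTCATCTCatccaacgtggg
The printed stretches lie at chr11:72981869-72981936 (plus strand) for Atp2a3 and chr5:122459988-122460055 (minus strand) for Atp2a2. Of the 50-base windows of the Atp2a3 transcript with the longest coding sequence, 4 of 4544 (0.088%) also occurred in a transcript of another gene, Atp2a1. For Atp2a2 the share was 4.58%, all in Gm30970, and for Atp2b1 it was 2.13%, all in Gm29808. For Atp2b4 it was 1.04%, spread over 217 genes, for Atp2b2 0.154%, all in Atp2b3, and for the other 5 genes 0. Reads of Atp2a3 could thus be told from those of other genes over nearly all of its transcript.

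The 4 libraries held 19931303 and 18903631 counts in irradiated 1 and 2 and 20817997 and 16811888 in unirradiated 1 and 2. The irradiated libraries differed from each other by a biological coefficient of variation of 39.4% over tested genes, the unirradiated ones by 5.93%. The epithelial identity of the sorted cells was measured with 6 luminal markers (Epcam, Krt8, Krt18, Krt19, Cdh1 and Cldn3), whose summed level was 10261 and 8237 CPM in irradiated 1 and 2 and 9747 and 9384 CPM in the unirradiated libraries (CPM, read counts brought to a common library size after TMM scaling). Krt8 and Krt18 made up much of the luminal sums. Of the 6 luminal markers, 1 was higher in each irradiated library than in each unirradiated one, 1 was lower and the others overlapped. Epcam was lower, with 1291 and 1089 CPM in irradiated 1 and 2 and 1447 and 1403 CPM in unirradiated 1 and 2. Krt19 was higher, with 596 and 794 CPM in the irradiated libraries, while the unirradiated ones had 572 and 547 CPM. Markers of most other cell types were highest in irradiated 2. The endothelial list summed to 30.3 and 505 CPM in irradiated 1 and 2, against 18.0 and 15.5 CPM in the unirradiated libraries, and in 5 of 7 markers each irradiated library exceeded each unirradiated one. The fibroblast list summed to 778 and 5726 CPM against 579 and 595 CPM (6 of 7 above), and the lymphocyte list to 28.2 and 172 CPM against 9.24 and 7.84 CPM (6 of 8 above). Of 8 macrophage markers 7 lay above, with sums of 338 and 785 CPM in irradiated 1 and 2 and of 352 and 320.0 CPM in unirradiated 1 and 2. Cd14, which overlapped, made up much of these sums, with 276 and 325 CPM against 335 and 304 CPM. Among those above, C1qa was at 14.6 and 123 CPM against 1.83 and 1.18 CPM. Cd68, also above, was at 18.1 and 27.8 CPM against 10.5 and 10.3 CPM. The sorted gene, Dll1, was at 146 and 80.2 CPM in irradiated 1 and 2 and at 130.1 and 129 CPM in unirradiated 1 and 2.

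Atp2a3 (ENSMUSG00000020788, chr11:72961169-72993044 in mm10, plus strand) encodes SERCA3, a pump known from blood cells, endothelium and secretory epithelia. It had 396 and 365 CPM in irradiated 1 and 2, against 719 and 739 CPM in unirradiated 1 and 2, from 7845 and 6853 counts against 14936 and 12522. Both irradiated libraries lay far below both unirradiated ones, and each pair lay close together. The means were 381 ± 21.5 CPM in irradiated and 729 ± 13.999 CPM in unirradiated cells (SD, n = 2 each), a log2 fold change of -0.94 (SE 0.13), or 0.522 times the unirradiated level. In bulk RNA, fewer cells that carry the transcript and less transcript per cell cannot be told apart. Endothelial markers summed to 30.3 and 505 CPM in irradiated 1 and 2, against 18.0 and 15.5 CPM in unirradiated 1 and 2. The sum of 5 platelet markers, mostly from Itga2b, was 14.1 and 13.1 CPM in irradiated 1 and 2. In unirradiated 1 and 2 it was 10.2 and 13.1 CPM. Pf4 was at 0.0504 and 2.93 CPM in irradiated 1 and 2, against 0.289 and 0.118 CPM in unirradiated 1 and 2. Gp1bb was at 0 in all 4 libraries. Gp9 had 0 counts in each irradiated library and 2 and 1 in unirradiated 1 and 2. Ppbp had 0 and 1 counts in irradiated 1 and 2 and 0 in each unirradiated library. The part of these cells in the Atp2a3 value was not tested.

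Atp2a2 (ENSMUSG00000029467, chr5:122453513-122502225, minus strand) encodes SERCA2, the SERCA pump of most cell types. It was at 371 and 313 CPM in irradiated 1 and 2, against 329.6 and 344 CPM in unirradiated 1 and 2. The irradiated libraries lay on either side of the unirradiated pair, and the log2 fold change was 0.02 (SE 0.14). Per length, Atp2a3 and Atp2a2 together summed to 136 and 121 FPKM in the irradiated libraries and to 190.3 and 196 FPKM in the unirradiated ones (FPKM, TMM-scaled CPM per kilobase of gene length). Atp2a3 made up 55.1% and 57.3% of this sum in the irradiated libraries, against 71.5% and 71.2% in the unirradiated ones. The FPKM ratio of Atp2a3 to Atp2a2 was 1.23 and 1.34 in irradiated 1 and 2 and 2.51 and 2.47 in unirradiated 1 and 2. The share and the ratio contain the Atp2a3 values on which the set was selected, and they describe the same difference.

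**Figure D1:**
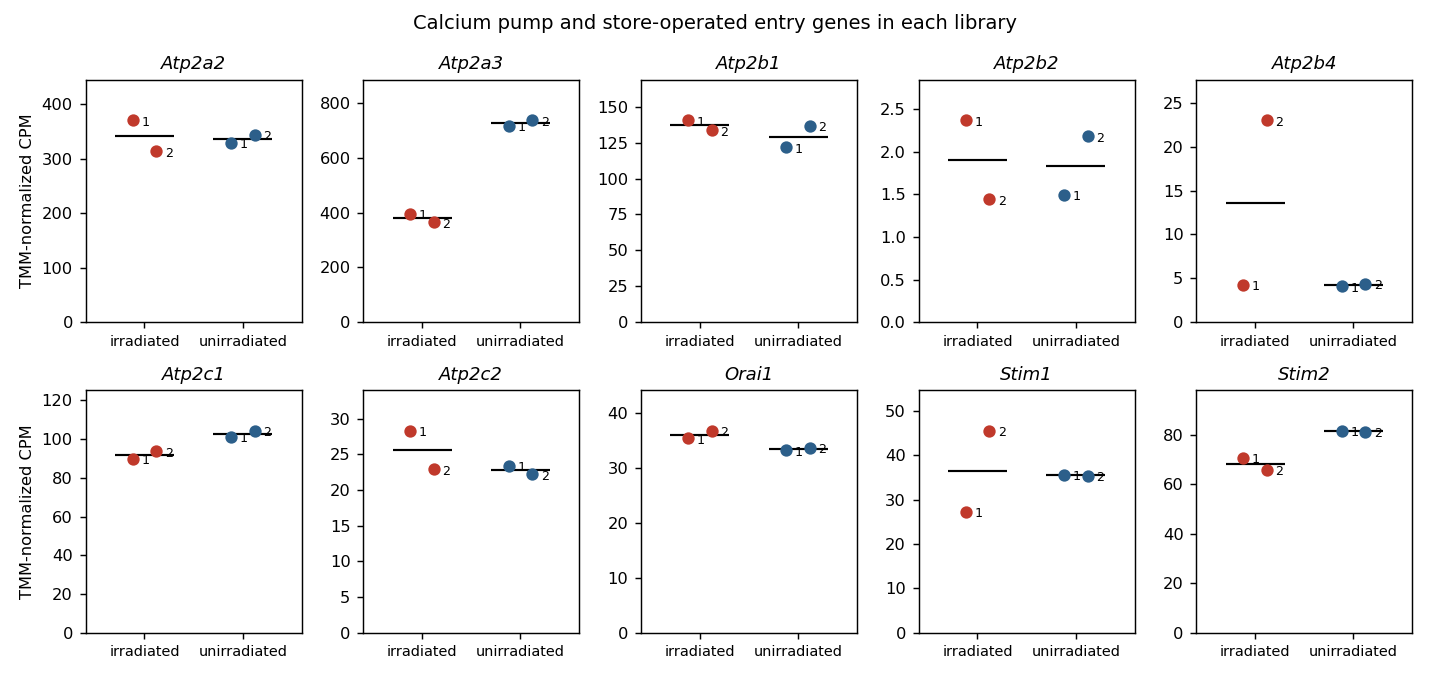
TMM-normalized CPM of each gene in the 4 libraries on a linear axis from 0, with irradiated libraries in red and unirradiated ones in blue, the library number beside each point and a bar at the group mean of 2 libraries. Atp2a3 has 396 and 365 CPM in irradiated against 719 and 739 CPM in unirradiated libraries, while Atp2b4 is high in irradiated 2 alone, at 23.0 CPM.

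The PMCA genes did not follow Atp2a3. Atp2b1 (ENSMUSG00000019943, chr10:98914406-99026143, plus strand), the housekeeping plasma membrane pump, was at 141 and 134 CPM in irradiated 1 and 2 and at 122 and 137 CPM in unirradiated 1 and 2 (log2 fold change 0.09, SE 0.11). The groups overlapped. Atp2b2 (ENSMUSG00000030302, chr6:113743831-114042613, minus strand), the pump of milk calcium, was barely detected, with 47 and 27 counts in irradiated 1 and 2 and 31 and 37 counts in unirradiated 1 and 2. That is 2.37 and 1.44 CPM against 1.49 and 2.18 CPM, again with overlap (log2 fold change 0.06, SE 0.47).

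Atp2b4 (ENSMUSG00000026463, chr1:133699457-133801041, minus strand), a PMCA gene also expressed in endothelium and smooth muscle, differed in 1 library. Its level was 4.24 CPM for irradiated 1 and 23.0 CPM for irradiated 2, against 4.09 and 4.36 CPM in the unirradiated libraries. Irradiated 1 lay between the unirradiated libraries and irradiated 2 stood far above them. The log2 fold change of 1.69 (SE 0.79) thus rests on irradiated 2, and without that library it was -0.01. Irradiated 2 was also the library with the endothelial sum of 505 CPM, and its list of 6 smooth muscle and pericyte markers summed to 266 CPM, against 90.7 CPM in irradiated 1 and 116 and 118 CPM in the unirradiated libraries. Of these 6 markers 2 lay above (Cspg4 and Des) and 2 below (Myh11 and Cnn1), and the highest of them in irradiated 2 was Rgs5, at 132 CPM. The part of these cells in the Atp2b4 value was not tested.

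The SPCA genes differed by small amounts. Atp2c1 (ENSMUSG00000032570, chr9:105403539-105527319, minus strand), the Golgi pump of most tissues, was at 89.7 and 93.6 CPM in irradiated 1 and 2, against 101 and 104 CPM in unirradiated 1 and 2. Both irradiated libraries lay below both unirradiated ones, by a log2 fold change of -0.16 (SE 0.10). The exons of Atp2c1 share 18.95% of their bases with those of Aste1 on the opposite strand, and since the libraries keep no strand, reads there cannot be assigned to a gene. Atp2c2 (ENSMUSG00000034112, chr8:119700009-119757717, plus strand), whose product SPCA2 is found in secretory epithelia and in human breast cancer cells can activate ORAI1, was at 28.3 and 22.9 CPM in irradiated 1 and 2, against 23.4 and 22.2 CPM in unirradiated 1 and 2. Irradiated 2 lay within the unirradiated pair and irradiated 1 above it (log2 fold change 0.17, SE 0.16).

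Summed over the 7 pump genes, the level was 164 and 148 FPKM in irradiated 1 and 2, against 216 and 224 FPKM in unirradiated 1 and 2. The 3 PMCA genes added 9.78 and 10.8 FPKM in the irradiated libraries against 8.45 and 9.51 FPKM, and the 2 SPCA genes 18.0 and 16.8 FPKM against 17.7 FPKM in each unirradiated library. The lower pump total of the irradiated libraries lay in Atp2a3, with a mean of 72.1 FPKM against 138 FPKM in unirradiated libraries. Atp2a2 had 56.2 FPKM against 55.4 FPKM. The total contains the Atp2a3 values on which the set was selected, and it describes the same difference.

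**Figure D2:**
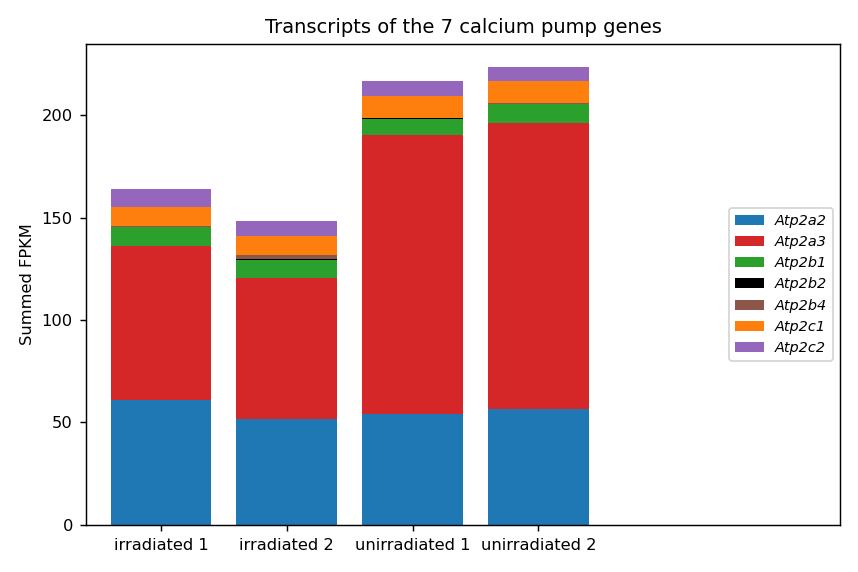
Stacked bars of FPKM for the 7 pump genes in each library, with irradiated libraries on the left and the axis starting at 0. The Atp2a3 segment is 74.9 and 69.2 FPKM in irradiated 1 and 2 and 136 and 139.8 FPKM in unirradiated 1 and 2, and the other segments differ less in height.

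Orai1 (ENSMUSG00000049686, chr5:123015074-123030456, plus strand) encodes the pore of the store-operated channel. It was at 35.5 and 36.8 CPM in irradiated 1 and 2, against 33.3 and 33.8 CPM in unirradiated 1 and 2. Both irradiated values exceeded both unirradiated ones, by a log2 fold change of 0.11 (SE 0.11) that is no larger than its error.

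The STIM sensors differed from each other in pattern. Stim2 (ENSMUSG00000039156, chr5:53998499-54121057, plus strand), the sensor that responds to small losses of stored calcium, was at 70.6 and 65.9 CPM in irradiated 1 and 2, against 81.5 and 81.0 CPM in unirradiated 1 and 2. Both irradiated libraries lay below, with a log2 fold change of -0.25 (SE 0.10). Stim1 (ENSMUSG00000030987, chr7:102267806-102437319, plus strand), the sensor of deep store loss, measured 27.2 CPM for irradiated 1 and 45.5 CPM for irradiated 2, against 35.6 and 35.3 CPM in the unirradiated libraries. The irradiated libraries lay on opposite sides of a tight unirradiated pair. The fitted log2 fold change of Stim1 was 0.04 (SE 0.26), and it was 0.34 without irradiated 1 and -0.39 without irradiated 2. The higher value came again with the markers of other cells in irradiated 2, and their part in it was not tested. The FPKM ratio of Stim2 to Stim1 was 5.23 and 2.93 in irradiated 1 and 2 and 4.63 in each unirradiated library.

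**Figure D3:**
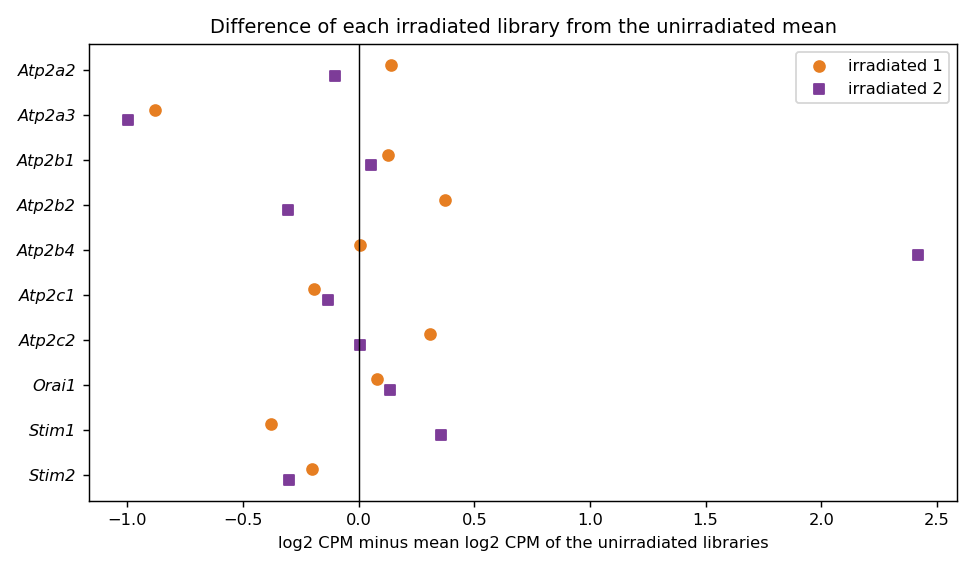
Difference of each irradiated library from the mean of the unirradiated libraries in log2 CPM, with circles for irradiated 1 and squares for irradiated 2. Atp2a3 is at -0.88 and -0.996 in irradiated 1 and 2, and Atp2b4 is at 0.004 and 2.42.

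All 10 genes passed the filter on low counts. None was called between irradiated and unirradiated libraries by the edgeR quasi-likelihood test with Benjamini-Hochberg adjustment over 15993 genes, which called 0% of all genes in either direction. The adjusted p of Atp2a3 was 0.489, equal to the smallest of all genes. At an unadjusted p under 0.05 the test held Atp2a3 alone among the 10, beside 2.44% of all genes on the lower side and 6.82% on the higher. DESeq2 called Atp2a3 alone, where it called 0.331% of all genes lower and 2.66% higher, and limma-voom called none of the 10. In 3 of the 10 genes (Atp2a3, Atp2c1 and Stim2) both irradiated libraries lay below both unirradiated ones, beside 20.0% of all tested genes, and in 1 (Orai1) above, beside 20.3%. The median log2 fold change of the 10 was 0.05, and of all tested genes 0.004. Nothing is read from these counts, since the contrast entered the choice of the genes. With no filter on low counts, edgeR called Atp2a3 lower, beside 0.381% of all genes, and Atp2b4 higher, beside 4.86%. In the edgeR fit without irradiated 1, Atp2b4 and Stim1 were called higher, where 15.9% of all genes were, and Atp2a3 and Stim2 lower, where 7.95% were. Without irradiated 2, Atp2a3 and Stim1 were called lower, where 13.9% of all genes were, and no member higher, where 11.9% were. The spread in both fits comes from the unirradiated pair.

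The order of levels was set by the SERCA genes. In the unirradiated libraries Atp2a3 was highest at 138 ± 2.65 FPKM (SD, n = 2), above 98.1% of tested genes, and Atp2a2 followed at 55.4 ± 1.63 FPKM, above 95.2%. Stim2 was at 15.8 ± 0.0661 FPKM, Orai1 at 14.6 ± 0.153, Atp2c1 at 10.6 ± 0.228, Atp2b1 at 8.49 ± 0.698, Atp2c2 at 7.09 ± 0.263 and Stim1 at 3.42 ± 0.0192 FPKM. Atp2b4 (0.345 ± 0.0158 FPKM) lay above 10.9% of tested genes and Atp2b2 (0.146 ± 0.0387 FPKM) above 4.03%. Neighbours in this order did not overlap in their unirradiated values. In the irradiated libraries Orai1 (15.8 ± 0.423 FPKM) took the place before Stim2 (13.3 ± 0.645 FPKM), and the other ranks were the same.

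The order below the SERCA genes depends on the length used. The deposited gene lengths equal the union of all annotated exons for the 10 genes, which counts exons that these cells may not use. With the length of the transcript that has the longest coding sequence, Stim1 was at 8.13 FPKM in the unirradiated libraries in place of 3.42, and Atp2b1 at 18.1 FPKM in place of 8.49. Atp2a3 (159 FPKM) and Atp2a2 (75.0 FPKM) then still led, followed by Atp2c1 and Atp2b1, while Atp2b2 (0.401 FPKM) came before Atp2b4 (0.361 FPKM) at the low end.

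**Figure D4:**
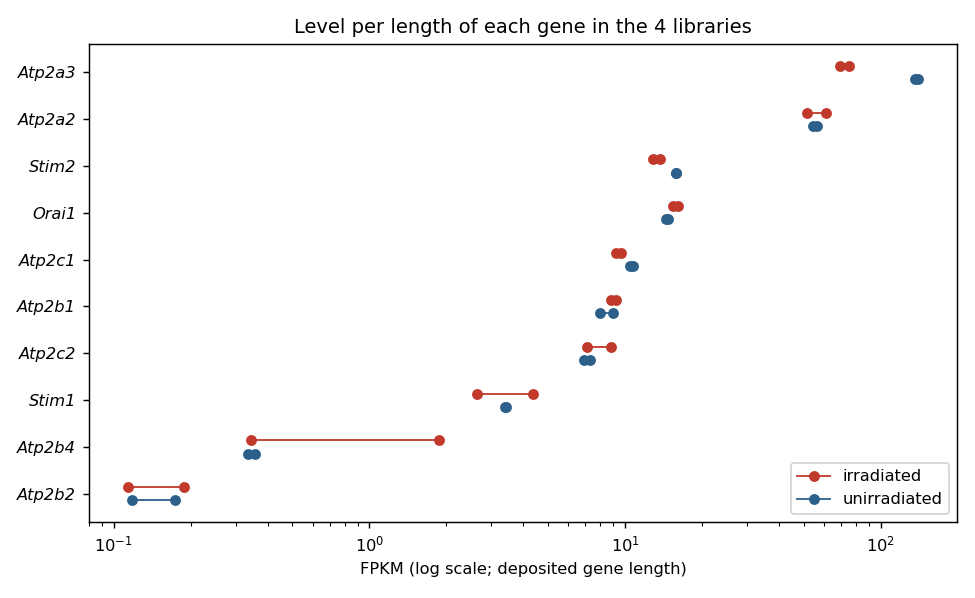
FPKM of each gene on a log axis, ordered by the unirradiated mean, with red points for the 2 irradiated and blue points for the 2 unirradiated libraries, each pair joined by a line. Atp2a3 is at 74.9 and 69.2 FPKM in irradiated and at 136 and 139.8 FPKM in unirradiated libraries, still above Atp2a2 in every library.

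The genes most like Atp2a3 in pattern were found by the root mean square distance between log2 CPM values centred over the 4 libraries, among 8263 genes of sufficient level. The nearest was Ralgapa2, a subunit of a GTPase-activating complex for Ral, at a distance of 0.073, where the median gene was at 0.47. It had 25.3 and 23.0 CPM in irradiated 1 and 2 and 40.5 and 46.3 CPM in unirradiated 1 and 2. Clic6 (0.077), of the chloride channel family, Slc6a14 (0.077), an amino acid transporter gene, Sidt1 (0.078) and Smoc1 (0.093) came next. Their log2 fold changes ran from -1.06 for Slc6a14 to -0.79 for Smoc1. Values near that of Atp2a3 follow from the choice by distance, and nothing is read from them. All distances contain the Atp2a3 values on which the set was selected. Of the other pump and entry genes the nearest to Atp2a3 was Stim2, at a distance of 0.34, and the farthest was Atp2b4 at 1.40.

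The other genes came from lists made by function, of calcium handling and, in 1 list of 11 genes, of milk proteins and secretory products. Of 100 listed genes, all were in the table and 90 were tested. The edgeR test called 0 of these 90, and at an unadjusted p under 0.05 it held 9 higher and 2 lower, beside 6.82% and 2.44% of all tested genes. The milk list held 4 of these 9 and the 2 lower ones, so the calcium lists had no lower gene at this threshold. DESeq2 called 4 higher (Nfatc1, Nfatc4, Csn2 and Csn1s1) and 2 lower (Btn1a1 and Lalba), beside 2.66% and 0.331% of all tested genes. Of these, Csn2, Csn1s1, Btn1a1 and Lalba are milk genes, and only Nfatc1 and Nfatc4 came from the calcium lists. The limma-voom test called none. Each irradiated library exceeded each unirradiated one in 23 of the 90 and below in 20, beside 20.3% and 20.0% of all tested genes. The median log2 fold change of the 90 was 0.02, and that of all tested genes 0.004. In each list below, the genes with the smallest p are named, and the median is that of log2 fold changes.

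Among 11 partners of store-operated entry, 3 lay above and 2 below, with a median of 0.23. The median log2 difference from the unirradiated mean was 0.02 in irradiated 1 and 0.36 in irradiated 2. Orai2, a second channel gene, was at 13.0 and 16.6 CPM in irradiated 1 and 2, against 9.09 and 8.73 CPM in unirradiated 1 and 2 (log2 fold change 0.73, SE 0.22, edgeR adjusted p = 0.492). Both irradiated libraries lay above the unirradiated pair, as they did for Orai1 by a smaller amount.

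Of 9 pump relatives and regulators 6 were tested, 2 of them above and 0 below, with a median of 0.16. Atp2a1, the SERCA1 gene of skeletal muscle, was at 2.57 and 1.87 CPM in irradiated 1 and 2, against 1.203 and 0.767 CPM in unirradiated 1 and 2 (log2 fold change 1.16, SE 0.47). A list of 7 skeletal muscle markers summed to 4.69 and 13.4 CPM in the irradiated libraries and 3.37 and 2.42 CPM in the unirradiated ones, with 4 of 7 above and with Myh4 and Tnnt3 at 0 in both unirradiated libraries, and its part in the Atp2a1 value was not tested. Nptn, whose product neuroplastin is a PMCA partner, measured 93.8 and 112 CPM against 94.3 and 88.9 CPM. Atp2b3, Sln and, from the list of other entry and exchange genes, Casr had no count in any library, and a count of 0 allows up to 0.151 and 0.160 CPM in irradiated 1 and 2 and 0.144 and 0.177 CPM in unirradiated 1 and 2 (3 counts per library, counting error only).

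Among 14 tested genes of calcium release 3 lay above and 2 below (median 0.01). Plcb4, a phospholipase C gene that acts upstream of the IP3 receptors, was at 18.5 and 35.9 CPM in irradiated 1 and 2, against 43.7 and 47.1 CPM in unirradiated 1 and 2 (log2 fold change -0.74, SE 0.32). Pkd2, the polycystin-2 channel gene, measured 50.2 and 50.003 CPM against 37.8 and 45.9 CPM. The other plasma membrane entry and exchange genes had 2 above and 2 below among 10 tested (median -0.01). Trpv4, a channel opened by swelling and stretch, measured 12.5 and 10.8 CPM in irradiated 1 and 2, against 7.70 and 7.31 CPM in unirradiated 1 and 2 (log2 fold change 0.64, SE 0.22), and P2ry2, a nucleotide receptor, measured 10.4 and 8.64 CPM against 4.67 and 7.84 CPM.

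In the mitochondrial uptake list 3 of 9 lay above and 1 below (median 0.08). Its median difference from the unirradiated mean was -0.08 in irradiated 1 and 0.23 in irradiated 2. Micu3, a regulator of the uniporter, was at 13.0 and 11.6 CPM in irradiated 1 and 2, against 16.5 and 16.9 CPM in unirradiated 1 and 2, and Letm1, a mitochondrial inner membrane protein gene, measured 50.4 and 54.4 CPM against 45.5 and 39.9 CPM. Of 12 tested calcium-binding proteins of the endoplasmic reticulum and Golgi, 0 lay above and 7 below, beside 20.3% and 20.0% of all tested genes. The median was -0.15. Nucb2, the nucleobindin-2 gene, was at 83.6 and 113 CPM in irradiated 1 and 2, against 130.3 and 125 CPM in unirradiated 1 and 2, and Rcn2, the reticulocalbin-2 gene, measured 48.4 and 57.1 CPM against 60.2 and 57.7 CPM. The median difference of this list from the unirradiated mean was -0.23 in irradiated 1 and -0.03 in irradiated 2.

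In the list of calmodulin, calcineurin and NFAT, which act on store-operated calcium signals, 6 of 17 lay above and 2 below (median 0.06). From the unirradiated mean this list differed by a median of -0.07 in irradiated 1 and 0.18 in irradiated 2. Nfatc1, an NFAT transcription factor gene, was at 19.7 and 30.5 CPM in irradiated 1 and 2, against 8.85 and 7.84 CPM in unirradiated 1 and 2 (log2 fold change 1.59, SE 0.27, edgeR adjusted p = 0.489). Nfatc4 was at 5.65 and 12.05 CPM against 1.73 and 1.42 CPM (log2 fold change 2.48, SE 0.48, edgeR adjusted p = 0.489). Both genes were higher in irradiated 2, the library with the most RNA of other cell markers, than in irradiated 1, and the part of those cells was not tested.

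In the list of 11 milk genes 4 lay above and 4 below (median -0.04). Csn2, the beta-casein gene, was at 14.3 and 15.7 CPM in irradiated 1 and 2, against 4.81 and 3.48 CPM in unirradiated 1 and 2, and Btn1a1, a milk fat droplet gene, measured 60.1 and 66.0 CPM against 98.5 and 101 CPM. A list of 6 salivary-type secretory markers summed to 94.0 and 270.1 CPM in the irradiated libraries and 12.9 and 16.2 CPM in the unirradiated ones (4 of 6 above). Prol1 of this list lay below, at 0.202 and 2.67 CPM in irradiated 1 and 2 against 5.82 and 5.84 CPM in unirradiated 1 and 2. Muc19 was near absent in both groups, with 0 counts in each irradiated library and 0 and 1 in unirradiated 1 and 2. The part of such cells in the secretory genes, Atp2a3 included, was not tested.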

How the data were processed

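Poly(A) RNA of 2 irradiated and 2 unirradiated libraries was sequenced with a non-directional kit, per the labels' protocols. The deposited tables hold unnormalized counts and each gene's length. STAR 2.5, HTSeq 0.6.1, DESeq2 and mm10 are named in the submitters' processing notes, with no counting options in the sources used here. The 3 single tables are identical to their columns in the joint table of 54532 genes. Genes passing filterByExpr (minimum count 10, minimum total 15) were tested with edgeR 4.0.16 in R 4.3.3 with TMM scaling, and SE is the log2 fold change over the root of the F statistic. DESeq2 1.42.0 and limma 3.58.1 were alternatives. Log2 CPM used a prior count of 2. An exact permutation test of 2 against 2 cannot go below p = 0.333. Sequences and windows came from GENCODE M21, where positions and exon lengths of the 10 genes equal the files', and coding sequences were aligned with Biopython 1.88. Protein sequences were not used here. The edgeR fit was tested on simulated counts in which all libraries shared the same dispersion trend. Those counts lacked the unequal spread between the groups, so the test cannot show how calls behave under it.

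The members and lists were chosen with earlier results of these data known. The genes named are the 10 members, the 2 genes of each calcium list with the smallest p, the 5 nearest to Atp2a3 with a mean log2 CPM of at least 4, and Dll1. Of these, 1 listed gene and 1 sequence are not reported here.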

Additional observations from a re-analysis of the deposited data

How the results depend on the processing

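The number of calls depends on the test, and each group has only 2 libraries. Against 0 genes called higher and 0 lower over all genes, 0 of the 10 members and 0 calcium list genes by edgeR, the count without a filter was 1338 higher and 105 lower, with 2 members (Atp2a3 lower, where 0.381% of all genes were called, and Atp2b4 higher, where 4.86% were), 4 list genes higher and 3 lower. By DESeq2 it was 425 higher and 53 lower, with 1 member (Atp2a3), 4 list genes higher and 2 lower. With each library left out in turn the ranges were 0 to 2713 genes higher, 0 to 2355 lower, 0 to 4 members, 0 to 18 list genes higher and 0 to 16 lower, and the calls came from leaving out irradiated 1 (2713 higher, 1354 lower, 4 members) or irradiated 2 (2022 higher, 2355 lower, 2 members). DESeq2 size factors, upper-quartile scaling, library size alone, the filter of CPM above 1 in 2 libraries, limma-voom and an adjusted p threshold of 0.1 called no gene, member or list gene.

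The log2 fold change of Atp2a3 ran from -1.01 to -0.89 with a library left out and from -0.95 to -0.93 otherwise. Directions turned for Stim1 with limma-voom (-0.017) and, with a library left out, for Atp2a2 (range -0.12 to 0.13), Atp2b1 (-0.0032 to 0.16), Atp2b2 (-0.35 to 0.37), Atp2b4 (-0.0076 to 2.43), Atp2c2 (-0.011 to 0.29) and Stim1 (-0.39 to 0.34). The causes were not tested. The counts of members below (3) and above (1) were the same under each scaling, and the 5 genes nearest to Atp2a3 were the same with a prior count of 0.5. The length of the transcript with the longest coding sequence, an alternative chosen after seeing the data, moved ranks as given above.

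With the replicate number as a block (replicate block), 2 genes were called higher over all genes and 0 members, and Stim1 turned to -0.010. The deviations of samples with the same number had a correlation of -0.0992 over 15993 genes. With 2 libraries per group, this correlation cannot decide whether such samples share more than a number. The spread was also unequal, with a biological coefficient of variation of 39.4% between the irradiated libraries and 5.93% between the unirradiated ones.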
